A study of Mus musculus with 4 samples.

Results

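The genes described here are 10 members of the mTORC1 pathway, the subunits Mtor, Rptor and Akt1s1, the mTORC2 subunit Rictor, the upstream regulators Tsc1, Tsc2, Rheb and Ddit4, and the translation repressors Eif4ebp1 and Eif4ebp2. They were taken by gene symbol from a table of 24328 symbols, and each of the 10 symbols was present once. The study made 4 libraries of polyA RNA from satellite cells, the stem cells of skeletal muscle, which were fixed by perfusing the mice with paraformaldehyde and then sorted. The 2 YFP libraries came from mice of the genotype Pax7CreERT2/+; ROSA26YFP/+ at 7 months of age. The 2 DEK libraries came from mice of the genotype Pax7CreERT2/+; H11DEK-EGFP/+ at 4.5 months of age, and the series title describes Dek as over-expressed. All 4 libraries thus carried the inducible Pax7CreERT2 driver, which restricts recombination to Pax7-expressing cells, and all mice were perfused. Age, reporter and transgene locus went with the group, so their parts in any difference between DEK and YFP cannot be told apart. How many animals each library pooled is not given in the sources used here.

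mTORC1 is a kinase complex at the lysosome surface that turns on protein synthesis and cell growth when growth factors and amino acids are available. Growth factor signals inhibit the Tsc1-Tsc2 complex, which otherwise keeps the small GTPase Rheb, the direct activator of mTORC1, in its inactive form, and amino acids act through the Rag GTPases. Active mTORC1 phosphorylates the 4E-BP proteins, which then release the cap-binding factor Eif4e. In mouse satellite cells mTORC1 activity is low in quiescence, and loss of Tsc1 moves the cells into an alert state that enters the cell cycle faster. These are controls on protein activity, and the values below are RNA levels only.

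Dek itself, the gene raised by the design, measured 512 and 504 FPKM in the YFP libraries against 3196 and 1639.5 FPKM in the DEK libraries, replicate 1 first throughout (log2 fold change 2.17, SE 0.31, limma adjusted p = 0.0195). That call was lost without YFP replicate 1, YFP replicate 2 or DEK replicate 1 with the same genes tested (limma adjusted p = 0.109, 0.150 and 0.0798), and with no low filter (limma adjusted p = 0.0863). With the low filter redone on the 3 libraries kept it was lost without YFP replicate 1 or YFP replicate 2 (limma adjusted p = 0.0982 and 0.139). The values are read as FPKM, an inferred unit that scales fragments by transcript length and library size. Levels are compared between genes on that reading, and effects of fixation and library making on them were not tested. The satellite cell markers Pax7, Myf5, Vcam1, Itga7, Cdh15, Calcr, Sdc4 and Chodl were present in every library, with a summed level of 2465 to 2603 FPKM in YFP and 2310 to 2751 FPKM in DEK, and 0 of 8 passed (2 higher and 0 lower at an unadjusted p under 0.05 by limma). Many markers of other cells were higher in DEK, where 4.57% of all tested genes were called higher. The 10 endothelial markers summed to 58.49 and 58.46 FPKM in YFP and to 145 and 122 FPKM in DEK. Of these 9 were called higher, and Kdr and Flt1 were at 0 in YFP. Most of the YFP sum was Tek, the marker not called (55.9 and 56.7 FPKM in YFP, 78.8 and 66.5 FPKM in DEK). The 9 macrophage markers in the table summed to 3.68 and 20.1 FPKM in YFP and to 98.5 and 123 FPKM in DEK, with 4 of 8 tested called higher, and C1qa, C1qb and C1qc were at 0 in YFP. Of 5 fibro-adipogenic markers 3 were called higher (sums 446 and 399 FPKM in YFP, 764 and 803 FPKM in DEK). So was 1 of 4 tested erythroid markers (7.71 and 0.299 FPKM in YFP, 24.9 and 347 FPKM in DEK). Of 5 pericyte and smooth muscle markers 2 were called higher, yet their sum was lower in DEK (199.7 and 173 FPKM in YFP, 105 and 133 FPKM in DEK). Most of that sum was Acta2, which was lower in DEK (193 and 166 FPKM in YFP, 74.2 and 111 FPKM in DEK, limma adjusted p = 0.0529). Cspg4 was also lower, without a call. Of 12 immediate early and dissociation response genes 7 were called higher, and their summed level was 570 and 485 FPKM in YFP, 14810 FPKM in DEK replicate 1 and 3482 FPKM in DEK replicate 2. The part of these cells and of this response in the values below was not tested. In such bulk samples, fewer cells of a type and less RNA per cell cannot be told apart.

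None of the 10 genes passed the test. DEK was compared with YFP by limma on log2(FPKM + 1) over the 12179 genes that reached 1 FPKM in at least 2 libraries, and all 10 members were above that level in all 4 libraries. At an adjusted p under 0.05, 0 of 10 members were called higher and 0 of 10 lower, against 4.57% and 3.21% of all tested genes. At an unadjusted p under 0.05, 4 of 10 members were lower (Eif4ebp2, Eif4ebp1, Tsc1 and Ddit4) and 0 were higher, against 12.2% and 16.9% of tested genes. The fitted difference was below 0 in 10 of 10 members (9 without YFP replicate 1 and 8 without DEK replicate 1), against 45.3% of tested genes, and the members' median was -0.28 on the log2 scale against 0.05 over all tested genes. The 10 include Mtor (-0.08), Rheb (-0.02) and Akt1s1 (-0.0019), whose values overlapped between the groups. In 7 of 10 members both DEK values lay below both YFP values, as they did in 26.9% of tested genes, and in 0 of 10 both lay above, against 34% of tested genes. The members were chosen with earlier results of these data known. Their counts beside the shares are therefore descriptions and no test of the set.

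In YFP the members spanned an 11.0-fold range of level. Eif4ebp1 (105 FPKM) and Rictor (104 FPKM) were highest and their values overlapped. Rheb (66.7 FPKM), Ddit4 (56.7 FPKM) and Rptor (49.6 FPKM) followed, with overlapping values of Ddit4 and Rptor. Akt1s1 stood at 25.0 FPKM and Tsc2 at 15.2 FPKM, each apart from its neighbours. Tsc1 (11.3 FPKM) and Mtor (10.7 FPKM) overlapped, and Eif4ebp2 was lowest at 9.52 FPKM. By YFP level Eif4ebp1 ranked above 93.8% of tested genes and Eif4ebp2 above 46.0%. In DEK the range was 23.1-fold. Rictor (89.5 FPKM) was then first, Rheb (65.7 FPKM) and Eif4ebp1 (62.3 FPKM) overlapped in the next places, and Eif4ebp2 was again last at 3.87 FPKM.

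**Figure D1:**
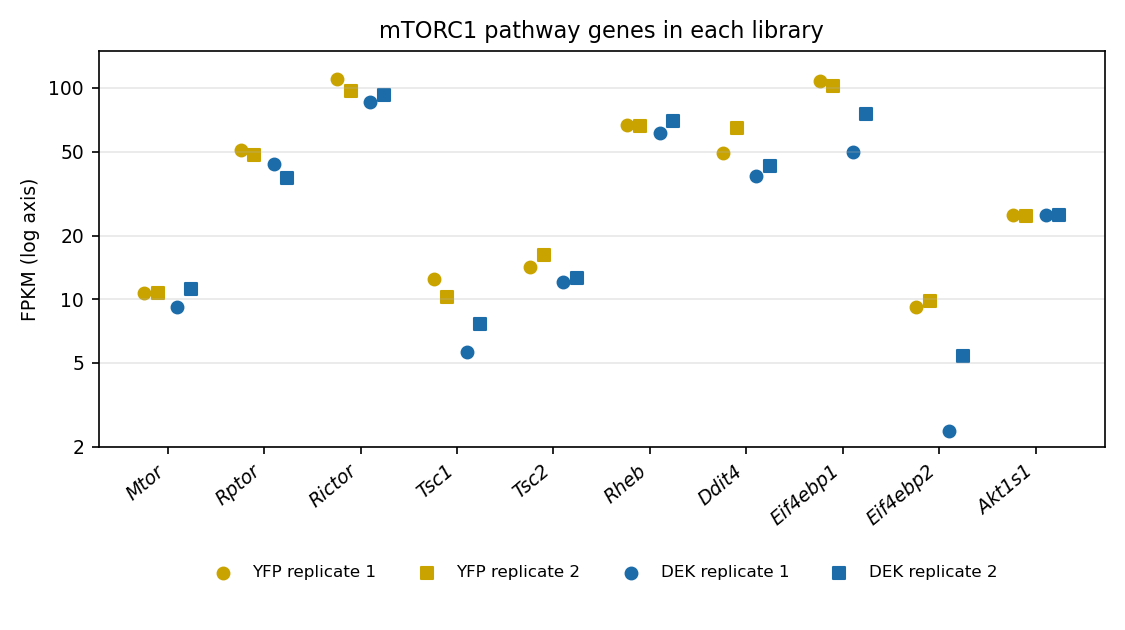
Level of each of the 10 genes in FPKM (log axis) in the 2 YFP libraries (yellow) and the 2 DEK libraries (blue), with circles for replicate 1 and squares for replicate 2. The DEK points of Eif4ebp1, Eif4ebp2 and Tsc1 lie below their YFP points, and those of Akt1s1, Rheb and Mtor lie among or beside them.

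Among the subunits, Mtor, the kinase itself, measured 10.73 and 10.75 FPKM in the YFP libraries against 9.17 and 11.1 FPKM in the DEK libraries. The DEK values lay on either side of the YFP values (log2 fold change -0.08, 95% interval -0.51 to 0.35, limma adjusted p = 0.796). Rptor, the scaffold that recruits mTORC1 substrates, measured 50.8 and 48.4 FPKM in the YFP libraries against 43.7 and 37.3 FPKM in the DEK libraries. Both DEK values were lower, by a difference that did not pass (log2 fold change -0.29, 95% interval -0.65 to 0.07, limma adjusted p = 0.250). Rictor, which takes the place of Rptor in mTORC2, measured 111 and 96.5 FPKM in the YFP libraries against 86.1 and 93.0 FPKM in the DEK libraries. Its groups were apart only narrowly (log2 fold change -0.21, 95% interval -0.55 to 0.14, limma adjusted p = 0.379). Akt1s1, known as PRAS40, is a subunit that restrains mTORC1 until Akt phosphorylates it. It measured 25.1 and 24.9 FPKM in the YFP libraries against 25.0 FPKM in both DEK libraries, so the DEK values lay within the YFP range. Its log2 fold change was -0.0019 (95% interval -0.34 to 0.34, limma adjusted p = 0.995).

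RNA of Rictor exceeded that of Rptor in every library, at ratios of 2.18 and 1.99 in YFP and 1.97 and 2.49 in DEK, which overlap. Rptor exceeded Mtor 4.73-fold and 4.50-fold in YFP and 4.77-fold and 3.35-fold in DEK. Mtor was thus the least abundant of the 4 subunit RNAs among the members in all libraries. Mlst8, a subunit outside the members and named after its values were seen, was lower still. It measured 4.11 and 3.32 FPKM in YFP and 2.96 and 3.50 FPKM in DEK.

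Upstream of the complex, Tsc1 and Tsc2 encode the complex that switches Rheb off. Tsc1, the stabilising subunit, measured 12.4 and 10.2 FPKM in the YFP libraries against 5.61 and 7.63 FPKM in the DEK libraries. Both DEK libraries were below both YFP libraries, with a mean 41.6% lower. The log2 fold change was -0.70 (SE 0.21, 95% interval -1.22 to -0.18), and the limma adjusted p of 0.0984 missed the threshold. Tsc2, the subunit that acts on Rheb, measured 14.2 and 16.2 FPKM in the YFP libraries against 12.1 and 12.6 FPKM in the DEK libraries. Its groups did not overlap either, with a smaller difference that did not pass (log2 fold change -0.28, 95% interval -0.68 to 0.12, limma adjusted p = 0.307). Exons of Tsc2 and of its neighbour Pkd1 on the other strand share 693 bases in the GENCODE annotation, and whether the authors' counting used strand is not given in the sources used here. Pkd1 measured 47.8 and 41.7 FPKM in the YFP libraries against 29.9 and 33.9 FPKM in the DEK libraries (log2 fold change -0.48, limma adjusted p = 0.110), so the value of Tsc2 is uncertain to that extent. Akt1s1 shares 85 exonic bases with Tbc1d17 in the same way, whose log2 fold change was -0.29 (limma adjusted p = 0.226).

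Rheb, the GTPase that activates mTORC1, measured 67.0 and 66.3 FPKM in the YFP libraries against 61.4 and 70.0 FPKM in the DEK libraries. The DEK values enclosed the YFP values (log2 fold change -0.02, 95% interval -0.36 to 0.32, limma adjusted p = 0.930). Within a library, RNA of Rheb exceeded that of Tsc1 5.39-fold and 6.48-fold in YFP and 10.9-fold and 9.19-fold in DEK. The ratio was higher in both DEK libraries. Ratios between genes are given as descriptions and were not tested. Tsc2 exceeded Tsc1 by ratios of 1.14 and 1.59 in YFP and 2.15 and 1.66 in DEK. Ddit4, also called REDD1, is induced by hypoxia, glucocorticoids and energy stress and restrains mTORC1 through the Tsc complex. It measured 49.0 and 64.4 FPKM in the YFP libraries against 38.2 and 42.8 FPKM in the DEK libraries. Both DEK libraries were lower, with a log2 fold change of -0.46 (SE 0.18, 95% interval -0.90 to -0.03) that did not pass (limma adjusted p = 0.153). In the same comparison 7 of the 12 immediate early and dissociation response genes were called higher, against 4.57% of all tested genes. Any link between these genes and Ddit4 was not tested.

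Downstream, both 4E-BP genes were lower at an unadjusted p under 0.05, and neither passed after adjustment. Eif4ebp1 measured 107 and 102 FPKM in the YFP libraries against 49.6 and 74.9 FPKM in the DEK libraries. Both DEK libraries were below both YFP libraries and apart from each other by more than the YFP libraries were (SD 17.9 FPKM in DEK and 3.56 FPKM in YFP, n = 2 each). The log2 fold change was -0.77 (SE 0.21, 95% interval -1.29 to -0.25, limma adjusted p = 0.0796). Eif4ebp2 measured 9.24 and 9.81 FPKM in the YFP libraries against 2.38 and 5.36 FPKM in the DEK libraries. Its mean was 59.4% lower in DEK, and the difference was the largest of the 10 (log2 fold change -1.18, SE 0.32, 95% interval -1.96 to -0.40, limma adjusted p = 0.0761). The size for this low gene depended on the value added before the logarithm. Its log2 fold change was -1.39 with 0.1 added. With 5 added it was -0.7315, beside -0.7323 for Eif4ebp1, so it was then not the largest. RNA of Eif4ebp1 exceeded that of Eif4ebp2 11.6-fold and 10.4-fold in YFP and 20.9-fold and 14.0-fold in DEK.

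The target of the 4E-BP proteins, the cap-binding factor Eif4e, measured 33.0 and 35.6 FPKM in the YFP libraries against 41.4 and 45.7 FPKM in the DEK libraries (log2 fold change 0.34, limma adjusted p = 0.183). The ratio of Eif4ebp1 to Eif4e RNA, chosen after the values were seen, was 3.25 and 2.87 in YFP and 1.20 and 1.64 in DEK. Both DEK ratios were below both YFP ratios (3.06 ± 0.267 in YFP and 1.42 ± 0.312 in DEK, SD, n = 2 each). This follows from the values of the 2 genes, with Eif4ebp1 lower and Eif4e higher in both DEK libraries. It adds no support to either difference.

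**Figure D2:**
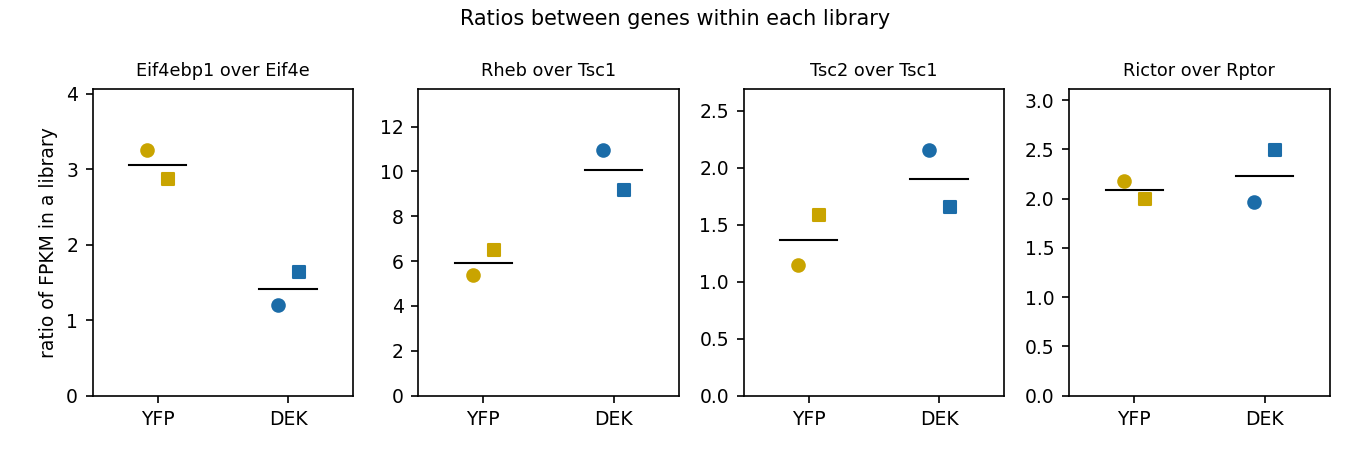
Ratios of FPKM between pairs of genes within each library, in YFP (yellow) and DEK (blue), with circles for replicate 1, squares for replicate 2 and lines for group means. Eif4ebp1 over Eif4e, a pair chosen after the values were seen, was 2.87 to 3.25 in YFP and 1.20 to 1.64 in DEK. Rictor over Rptor overlapped between groups.

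Of the 10 members 8 had their lowest value in DEK replicate 1, a count with no share over all tested genes beside it. It includes Mtor and Rheb, whose values in DEK replicate 2 were above both YFP values. Against the YFP mean, the log2 differences of DEK replicates 1 and 2 were -1.64 and -0.73 for Eif4ebp2, -1.06 and -0.48 for Eif4ebp1, and -0.89 and -0.51 for Tsc1. DEK replicate 1 was also the library with the higher Dek value and the higher sum of immediate early genes given above. Whether the lower member values go with either was not tested. Without DEK replicate 1 the log2 fold changes were -0.73 for Eif4ebp2, -0.48 for Eif4ebp1 and -0.51 for Tsc1, each with a limma adjusted p above the threshold (0.244, 0.207 and 0.355). Without DEK replicate 2 they were -1.64, -1.06 and -0.89 (limma adjusted p = 0.0805, 0.0665 and 0.160), and Eif4ebp2 and Eif4ebp1 passed when the filter on low values used only the 3 libraries kept, a setting added after the data were seen (limma adjusted p = 0.0188 and 0.0143). With 1 library left out, the lone library of its group is assumed to vary like the other group's.

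**Figure D3:**
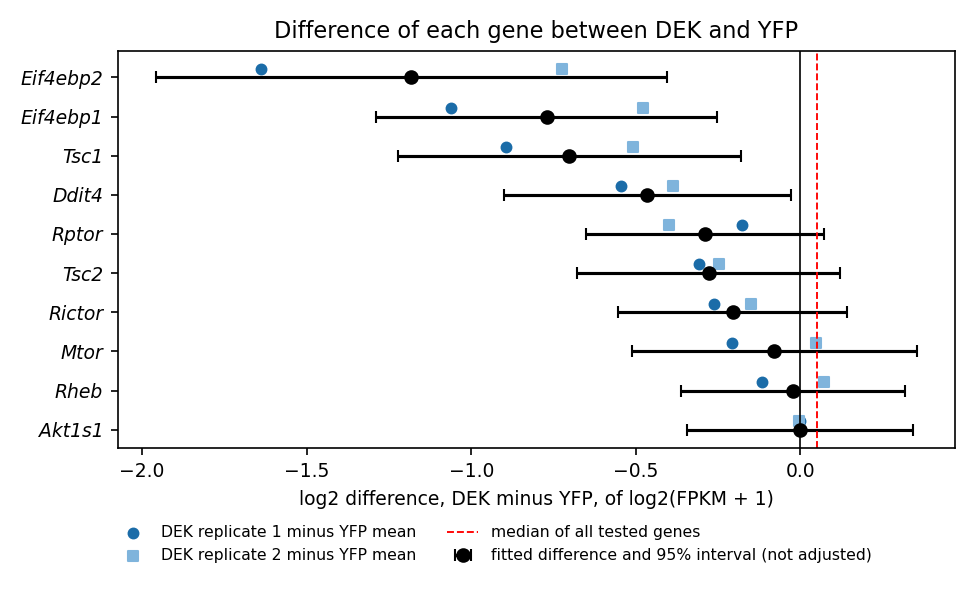
Fitted difference of each gene between DEK and YFP on the log2(FPKM + 1) scale (black points) with its 95% interval, not adjusted for the number of genes, and the difference of each DEK library from the YFP mean (blue). The intervals of Eif4ebp2, Eif4ebp1, Tsc1 and Ddit4 lie below 0, and DEK replicate 1 lies further from 0 than DEK replicate 2 in each of them.

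Promoter windows of 250 bases before the annotated start were available for 9 of the 10 members from RefSeq (GRCm38.p6, another build than the mm9 of the values); there was none for Eif4ebp1. The windows of Eif4ebp2, Tsc1 and Ddit4 are shown because these members, with Eif4ebp1, had an unadjusted p under 0.05. They lie at chr10:61452670-61452919 (minus strand), chr2:28640983-28641232 (plus strand) and chr10:59951771-59952020 (minus strand). Capitals mark GC boxes (GGGCGG) and CCAAT boxes (CCAAT) on either strand.
Eif4ebp2: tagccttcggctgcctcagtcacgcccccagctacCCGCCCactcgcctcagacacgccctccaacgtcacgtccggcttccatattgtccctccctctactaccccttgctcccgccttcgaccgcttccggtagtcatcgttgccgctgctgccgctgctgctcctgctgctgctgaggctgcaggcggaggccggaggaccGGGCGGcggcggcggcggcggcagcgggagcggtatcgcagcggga
Tsc1: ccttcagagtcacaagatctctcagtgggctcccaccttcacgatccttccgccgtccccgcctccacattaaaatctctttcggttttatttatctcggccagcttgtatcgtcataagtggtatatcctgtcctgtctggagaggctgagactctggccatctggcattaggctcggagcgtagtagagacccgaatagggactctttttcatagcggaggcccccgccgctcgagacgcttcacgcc
Ddit4: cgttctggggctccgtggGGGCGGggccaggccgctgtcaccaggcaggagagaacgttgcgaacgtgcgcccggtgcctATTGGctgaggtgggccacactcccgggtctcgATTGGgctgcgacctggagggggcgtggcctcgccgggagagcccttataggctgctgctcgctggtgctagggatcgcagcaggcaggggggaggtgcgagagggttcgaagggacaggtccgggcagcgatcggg
Eif4ebp2 held 2 GC boxes, Tsc1 held 0 of either motif, and Ddit4 held 1 GC box and 2 CCAAT boxes. Over the 9 windows 6 held a GC box and 3 a CCAAT box, against 32.7% and 33.8% of all 32851 windows of the same length. An E-box (CACGTG) was found in 1 of 9, that of Rheb, against 6.02% of all windows. The ATF4 element (TGATGNAA), the cyclic AMP response element (TGACGTCA) and the forkhead element (GTAAACA), each sought on both strands, were found in 0 of 9, against 3.45%, 1.55% and 3.17%. In the window of Rictor a GC box and the CCAAT box overlap; the shown windows hold no such overlap.

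The genes around mTORC1 were taken from 7 lists of 81 symbols, of which 77 were tested. Of these 0 were called higher and 5 lower, 6.49% of the 77, against 7.78% of all tested genes called in either direction and 3.21% called lower. The 5 were Flcn, Gatsl2, Phlpp1, Grb10 and Ulk1. Over the 77 genes the median log2 fold change was -0.12, and 5 were higher and 15 lower at an unadjusted p under 0.05 by limma. Over all tested genes the median was 0.05, and 16.9% were higher and 12.2% lower at that level. These shares also serve as the comparison for the counts of each list below. The lists too were chosen with earlier results of these data known, so their counts are descriptions only.

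In the amino acid arm, 2 of 18 tested genes of the GATOR and KICSTOR complexes and the sensors fell and 0 rose (list median -0.06). At an unadjusted p under 0.05 by limma, 3 were lower and 2 higher. Both DEK values lay below both YFP values in 6 genes and above them in 6. The 2 higher genes, named after their values were seen, were Mios and Seh1l. Their log2 fold changes were 0.77 and 0.699 (limma adjusted p = 0.0558 and 0.14). Flcn, folliculin, activates the Rag GTPases RagC and RagD on the lysosome. It fell from 17.9 and 14.4 FPKM in the YFP libraries to 7.23 and 7.57 FPKM in the DEK libraries (log2 fold change -1.02, SE 0.18, limma adjusted p = 0.0322). Gatsl2, the older symbol of the arginine sensor family member Castor2, fell from 49.1 and 53.9 FPKM in the YFP libraries to 26.9 and 33.7 FPKM in the DEK libraries (log2 fold change -0.75, SE 0.17, limma adjusted p = 0.0497). Of 10 Rag GTPase and Ragulator genes 0 passed, and 2 were lower and 0 higher at an unadjusted p under 0.05. These were Rragc, which encodes RagC (YFP 34.7 and 34.4 FPKM, DEK 25.0 and 21.8 FPKM, limma adjusted p = 0.0775), and the lysosomal arginine transporter Slc38a9 (YFP 10.5 and 9.96 FPKM, DEK 6.62 and 6.30 FPKM, limma adjusted p = 0.0870).

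In the insulin and growth factor arm 1 of 13 tested genes fell and 0 rose (list median -0.41), and 6 were lower at an unadjusted p under 0.05. The Akt phosphatase Phlpp1, a brake on Akt, fell from 9.60 and 12.6 FPKM in the YFP libraries to 5.57 and 4.87 FPKM in the DEK libraries (log2 fold change -0.95, SE 0.20, limma adjusted p = 0.0472). The other 5, named after their values were seen, encode proteins that activate Akt. They were the receptors Insr and Igf1r, the adaptors Irs1 and Irs2 and the kinase Pik3ca, with log2 fold changes of -0.99, -0.70, -0.56, -0.63 and -0.57 and limma adjusted p from 0.0625 to 0.0805.

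Among 16 mTORC1 substrates and effectors 2 fell and 0 rose (list median -0.18). Grb10, an adaptor that mTORC1 stabilises and that dampens insulin signalling, is also an imprinted gene. It fell from 333 and 239.7 FPKM in the YFP libraries to 149.9 and 132 FPKM in the DEK libraries (log2 fold change -0.9999, SE 0.19, limma adjusted p = 0.0380). Ulk1, the kinase that starts autophagy and that mTORC1 inhibits, fell from 20.1 and 22.4 FPKM in the YFP libraries to 12.3 and 11.9 FPKM in the DEK libraries (log2 fold change -0.76, SE 0.16, limma adjusted p = 0.0427). In each of the 5 genes called lower, both DEK values were below both YFP values, as in 26.9% of all tested genes. The call rests on these same values, so this adds no support to it. With any 1 library left out and the same genes tested, 0 of the 77 genes were called lower by limma. At an unadjusted p under 0.05, 15 and 13 were lower with the first and the second YFP library left out, and 11 and 16 with the first and the second DEK library left out.

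In the remaining 3 lists 0 genes passed limma, with 3 higher and 1 lower at an unadjusted p under 0.05. Of 7 other mTORC1 subunits and assembly factors (list median 0.36), Telo2, which helps fold and assemble mTOR, measured 4.83 and 5.94 FPKM in the YFP libraries against 9.79 and 10.8 FPKM in the DEK libraries (limma adjusted p = 0.0538), and the chaperone ATPase Ruvbl2 46.6 and 60.1 FPKM against 65.9 and 73.0 FPKM (limma adjusted p = 0.199). Deptor, an inhibitory mTOR subunit named after its values were seen, was more abundant than any of the 10 members in YFP, at 221 and 249 FPKM, and stood at 162 and 223 FPKM in DEK (limma adjusted p = 0.340). Of the 2 tested mTORC2 subunits, Prr5 measured 43.0 and 44.7 FPKM in the YFP libraries against 16.7 and 27.3 FPKM in the DEK libraries (log2 fold change -1.002, limma adjusted p = 0.0599), and Mapkap1 had a log2 fold change of 0.54 (limma adjusted p = 0.147). In the AMPK and stress arm (11 tested, list median 0.16), Atf4, a transcription factor of the integrated stress response, measured 51.1 and 66.2 FPKM in the YFP libraries against 294 and 99.7 FPKM in the DEK libraries (log2 fold change 1.54, SE 0.48, limma adjusted p = 0.102). Without DEK replicate 2 it was called higher (log2 fold change 2.32, limma adjusted p = 0.0472). Stk11, the kinase that activates AMPK, measured 21.4 and 16.5 FPKM in the YFP libraries against 12.7 and 15.0 FPKM in the DEK libraries (limma adjusted p = 0.209).

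**Figure D4:**
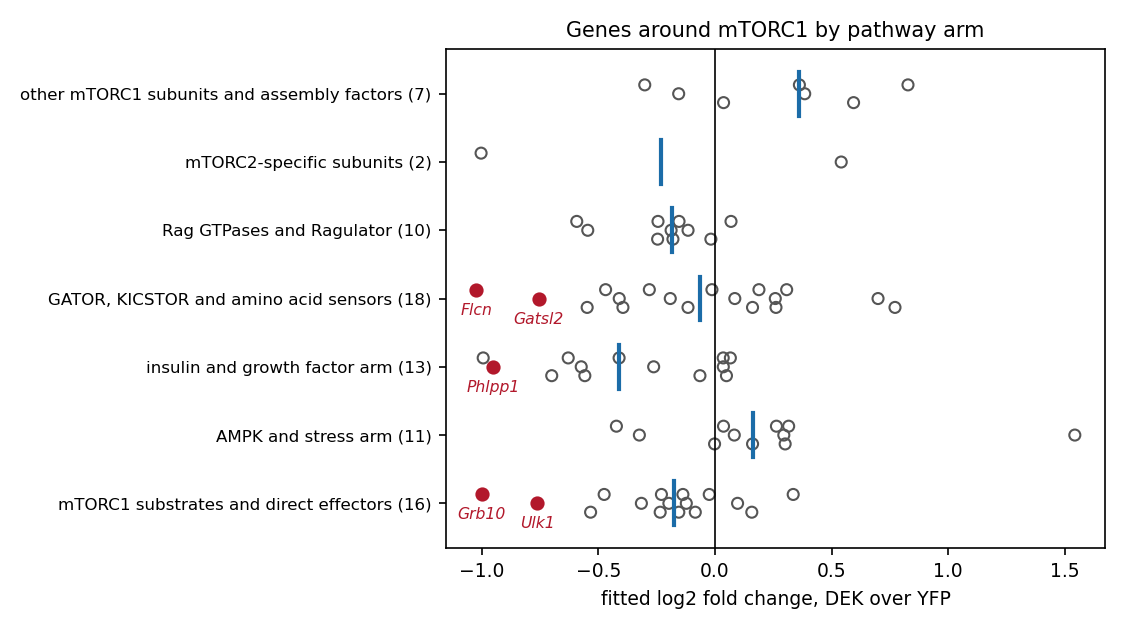
Fitted log2 fold change of DEK over YFP for the tested genes of 7 lists around mTORC1 (number tested in parentheses), with filled red points for genes called by limma at an adjusted p under 0.05, open points for the others and blue bars for list medians. The 5 red points, Flcn, Gatsl2, Phlpp1, Grb10 and Ulk1, all lie below 0.

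The profile of Eif4ebp2, the member with the largest fitted difference, was set beside those of all other tested genes with a mean of at least 5 FPKM. By the Euclidean distance of log2 values centred on each gene's mean over the 4 libraries, the 3 nearest were Gas1 (distance 0.104), AW551984 (0.172) and the clock repressor Nr1d1 (0.195). Gas1, a membrane protein known from growth arrest, measured 647 and 637 FPKM in the YFP libraries against 193 and 386 FPKM in the DEK libraries. With 4 libraries such a likeness is a description only.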

How the data were processed

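The deposited table held 1 value per gene symbol for each of 4 libraries of fixed, sorted mouse muscle stem cells, with cDNA made by a SMART-Seq kit for low input, per the labels' protocols. The values are read as FPKM made by the authors; this unit is inferred from values that are not whole and unequal column totals, and they may be TPM. Per the submitters' processing notes, STAR 2.5.3a, StringTie 1.3.3, R 3.4.1 and build mm9 were used; annotation, settings and strand use are not given in the sources used here. Column totals ran from 541183 to 545123 FPKM. Rn45s, the precursor of ribosomal RNA, made up 11.8% and 15.7% of the YFP totals against 5.15% and 5.55% of the DEK totals. The table gives no read depth, so no counting intervals are given.

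Genes that reached 1 FPKM in at least 2 libraries were fitted with limma 3.58.1 (R 4.3.3) on log2(FPKM + 1), with an empirical Bayes variance trend, two-sided tests, no covariates, Benjamini-Hochberg adjustment over 12179 genes; a gene was called at an adjusted p under 0.05. Fold changes on this scale understate low genes. The 95% intervals come from the same model and are not adjusted. Nothing in the labels ties a replicate to its own animal, so the p-values cover only the spread among these libraries, which may be technical. The procedure was tested on simulated data. The members and lists were chosen with earlier results of these data known; 1 gene was then left out of the lists and is not reported here. Named were the 10 members, in each list every gene that passed or otherwise the 2 with the smallest p, the 3 genes nearest in profile to the member with the largest difference, Dek and Rn45s; others are marked. Alternatives were each library left out, the replicate number as a block, added values of 0.1 and 5, no low filter or 5 FPKM, TMM factors (unweighted, trims of 30% and 5%), quantile normalization, Rn45s removed, limma without trend or with robust estimation, and an adjusted p under 0.1. All 4 value columns were used.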

Additional observations from a re-analysis of the deposited data

How the results depend on the processing

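In the alternatives tried 0 members were called higher. Lower calls numbered 1 after quantile normalization (Eif4ebp1, limma adjusted p = 0.0483), 3 at an adjusted p under 0.1 (Eif4ebp2, Eif4ebp1 and Tsc1) and 0 under the other alternatives, each library left out included. When the filter on low values used only the 3 libraries kept, a setting added after the data were seen, they numbered 0 to 2; the 2 came without DEK replicate 2 (Eif4ebp1 and Eif4ebp2, limma adjusted p = 0.0143 and 0.0188). The adjusted p of Eif4ebp2 ran from 0.0188 to 0.265, that of Eif4ebp1 from 0.0143 to 0.261 and that of Tsc1 from 0.0670 to 0.355. The sign turned for 3 uncalled members, with 1 library left out: Mtor ran from -0.21 to 0.05 and Rheb from -0.12 to 0.0705, both above 0 without DEK replicate 1, and Akt1s1 from -0.0078 to 0.0039, above 0 without YFP replicate 1. The other 7 members stayed below 0 throughout. Removing Rn45s moved the median of all tested genes from 0.05 to -0.07 and that of the members from -0.28 to -0.42, so that the gap between them was -0.34 and -0.35. It also moved the share of higher calls from 58.8% to 42.6%, against 45.4% after quantile normalization. The 5 lower calls among the 77 pathway genes became 0 with no low filter, 2 without the trend, 3 with an added value of 0.1, 7 with TMM or quantile normalization and 11 with Rn45s removed, and numbered 0 to 3 with 1 library left out, the 3 being those without DEK replicate 2 under the added filter setting; the cause was not tested. Calls in the higher direction numbered 2 at 5 FPKM or with robust estimation (Mios and Telo2). Over all genes 948 calls became 293 with no low filter and, with 1 library left out, 0 to 184 with the same genes tested and 83 to 780 with the added filter setting. The replicate numbers were not taken to pair the libraries (r = 0.0635 across genes between same-numbered deviations); with the replicate block 618 genes were called, 0 members and 2 pathway genes lower. Depth is unknown.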
